A study of Rattus norvegicus with 31 samples.

Results

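The genes described here encode the drug- and lipid-metabolising cytochrome P450 enzymes of families Cyp1 to Cyp4, the UDP-glucuronosyltransferases (Ugt) and the cytosolic sulfotransferases (Sult). They were taken by symbol from the deposited rat count table, which gave 71 of its 20207 genes: 53 Cyp, 6 Ugt and 12 Sult genes. The RNA came from kidney cortex and colon of rats (Rattus norvegicus) in 3 groups. NC rats were normal controls, HS rats were a high-salt model, and CAL rats had a high-salt diet with added calcitriol, the hormonal form of vitamin D, so the high-salt diet is shared by HS and CAL. From the cortex came 15 libraries (NC 5, HS 4, CAL 6), and from the colon 16 (NC 5, HS 5, CAL 6). The dose, duration, strain, sex and age were not used here, and each library is a separate sample per the labels, so a p-value measures the spread between these samples.

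Cytochrome P450 enzymes insert oxygen into lipids, steroids and foreign compounds. In the rat kidney, Cyp4a enzymes of the proximal tubule and blood vessels hydroxylate arachidonic acid at its omega end, and Cyp2c and Cyp2j enzymes turn the same fatty acid into epoxides. Both kinds of product are known to act on vascular tone and on tubular sodium transport. Ugt enzymes couple such molecules to glucuronic acid and Sult enzymes to sulfate, which makes them soluble and ready for export into urine, bile or the gut lumen. In the intestine, Cyp3a, Ugt and Sult enzymes of the epithelium form a barrier to compounds taken up with food.

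The promoters of 7 genes are shown because the results below turn on them: the neighbouring Cyp4a genes that mark the cortex, a pair of Ugt2b genes of 1 chromosomal cluster that are used by opposite tissues, and the 3 sulfotransferase genes that differed between HS and NC cortex. Each is the 250 bases before the start of the gene in RefSeq, build GRCr8, written 5′ to 3′ on the strand of the gene. Capitals mark AGGTCA (the half-site of many nuclear receptors), TATAAA (the TATA box) or GCGTG (the core bound by the aryl hydrocarbon receptor), read on either strand.
Cyp4a2, chr5:134170909-134171158, minus strand: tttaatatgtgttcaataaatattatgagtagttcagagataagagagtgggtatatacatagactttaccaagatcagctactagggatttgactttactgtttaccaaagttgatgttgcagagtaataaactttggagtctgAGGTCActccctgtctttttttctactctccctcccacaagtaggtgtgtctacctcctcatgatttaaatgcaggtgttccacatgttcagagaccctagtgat
Cyp4a3, chr5:134352237-134352486, minus strand: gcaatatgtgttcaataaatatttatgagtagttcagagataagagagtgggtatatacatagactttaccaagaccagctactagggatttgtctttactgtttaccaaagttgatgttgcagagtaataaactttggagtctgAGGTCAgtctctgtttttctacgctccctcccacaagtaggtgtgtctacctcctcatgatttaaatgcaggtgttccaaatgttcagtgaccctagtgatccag
Ugt2b35, chr14:21208191-21208440, plus strand: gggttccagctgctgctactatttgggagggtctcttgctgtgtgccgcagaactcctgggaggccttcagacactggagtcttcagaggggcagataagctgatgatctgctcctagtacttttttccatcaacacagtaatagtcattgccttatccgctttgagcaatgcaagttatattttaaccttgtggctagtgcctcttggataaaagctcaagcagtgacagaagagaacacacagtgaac
Ugt2b10, chr14:21462591-21462840, plus strand: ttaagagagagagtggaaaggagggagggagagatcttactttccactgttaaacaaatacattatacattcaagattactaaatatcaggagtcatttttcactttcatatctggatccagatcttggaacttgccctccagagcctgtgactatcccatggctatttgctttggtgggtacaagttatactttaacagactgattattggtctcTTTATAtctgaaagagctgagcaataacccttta
Sult1c2a, chr9:7103203-7103452, minus strand: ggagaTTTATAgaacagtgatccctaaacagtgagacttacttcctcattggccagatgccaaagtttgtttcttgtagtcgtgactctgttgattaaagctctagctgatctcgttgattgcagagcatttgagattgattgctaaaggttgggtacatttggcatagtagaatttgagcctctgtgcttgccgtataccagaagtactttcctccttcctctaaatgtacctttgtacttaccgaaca
Sult1b1, chr14:20771667-20771916, plus strand: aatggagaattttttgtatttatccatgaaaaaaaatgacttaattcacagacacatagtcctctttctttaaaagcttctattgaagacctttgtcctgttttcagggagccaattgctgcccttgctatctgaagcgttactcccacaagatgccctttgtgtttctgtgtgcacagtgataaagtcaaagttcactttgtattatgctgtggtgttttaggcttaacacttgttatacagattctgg
Sult2b1, chr1:105397745-105397994, minus strand: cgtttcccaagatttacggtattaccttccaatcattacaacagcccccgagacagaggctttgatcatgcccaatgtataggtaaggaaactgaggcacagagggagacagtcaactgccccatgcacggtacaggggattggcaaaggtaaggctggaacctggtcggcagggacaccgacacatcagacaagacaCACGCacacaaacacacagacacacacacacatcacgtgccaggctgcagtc

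The counts themselves were made on another build, Rnor_6.0, and none of these coordinates belongs to it. The Cyp4a2 and Cyp4a3 promoters had the same base at 96.3% of aligned positions, and both held AGGTCA at position -105. The Ugt2b35 and Ugt2b10 promoters had the same base at 72.1% of 201 aligned positions, from 250 bases each. Gaps were allowed, and no unrelated pair was aligned for comparison, so this share does not measure how alike they are. The genes Ugt2b35 and Ugt2b10 lay on chromosome 14 with 4 protein-coding genes between them. Of the 71 genes, 62 had a promoter in the RefSeq table. AGGTCA stood in 17 of these 62 (27.4%), against 14.1% of all 33469 promoters of that length. TATAAA stood in 17 of 62 (27.4%, against 12.9%) and GCGTG in 15 of 62 (24.2%, against 25.9%). A single promoter was read for each of the 62 genes, while the 33469 include every promoter listed. Related genes can share promoter letters, as Cyp4a2 and Cyp4a3 do, so the 62 are not independent and these shares were not tested. A strict form of the vitamin D element, AGGTCA repeated with NNN between, which contains the half-site, stood in 0 of 62 and in 0.0209% of all promoters. With so few matches anywhere, the 0 cannot show that these genes lack such an element. A match describes letters only, and the sites were not measured here.

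Depth was 289529 to 2265164 counts a library in cortex and 267976 to 918820 in colon. Levels below are CPM, counts scaled to a common library total and by trimmed mean of M-values (TMM) within a tissue, where the total is taken over the genes kept by the filter. On this scale a count of 0 allows up to 1.36 to 10.5 CPM in a cortex library and up to 3.40 to 11.6 CPM in a colon library, taking 3 counts as the limit, and this covers counting error only. CPM values are not divided by gene length, so the levels of different genes are not ranked. The tissue labels matched their markers: 14 proximal tubule genes summed to 20542 to 28035 CPM in the cortex libraries and to 25.1 to 304 CPM in the colon, and 12 surface colonocyte genes to 9864 to 23324 CPM in the colon and 397 to 640 CPM in the cortex. Markers of hepatocytes, the cell type in which many of these enzymes are best known, summed to at most 7.88 CPM in the cortex. In the colon, HS replicate 3 stood apart and is treated separately below: 10 of 11 small-intestine genes were higher in it than in any of the other 15 colon libraries, and the genes kept by the filter held 83.8% of its counts, against 95.4% to 97.1% in the others.

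Of the 71 genes, 6 had no count in any library (Sult2a1, Sult1e1, Cyp2a1, Cyp2b15, Cyp2c12 and Cyp4f4) and 25 had between 1 and 20 counts over all 31 libraries together. The filter on low counts kept 26 genes in the cortex and 15 in the colon, 31 in either and 10 in both. A gene could pass through the tissue or group in which it was high, so the counts below describe the genes tested and not all 71. Together the 71 genes held 1.33 ± 0.119% (SD, n = 5) of the counts in NC cortex, 1.32 ± 0.257% (n = 4) in HS and 1.40 ± 0.278% (n = 6) in CAL. In the colon they held 0.361 ± 0.061% (n = 5) in NC, 0.295 ± 0.089% (n = 5) in HS and 0.332 ± 0.076% (n = 6) in CAL. The HS colon share was 0.309 ± 0.097% (n = 4) without replicate 3 and 0.239% in replicate 3. The ranges of the 3 groups overlapped in each tissue.

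**Figure D1:**
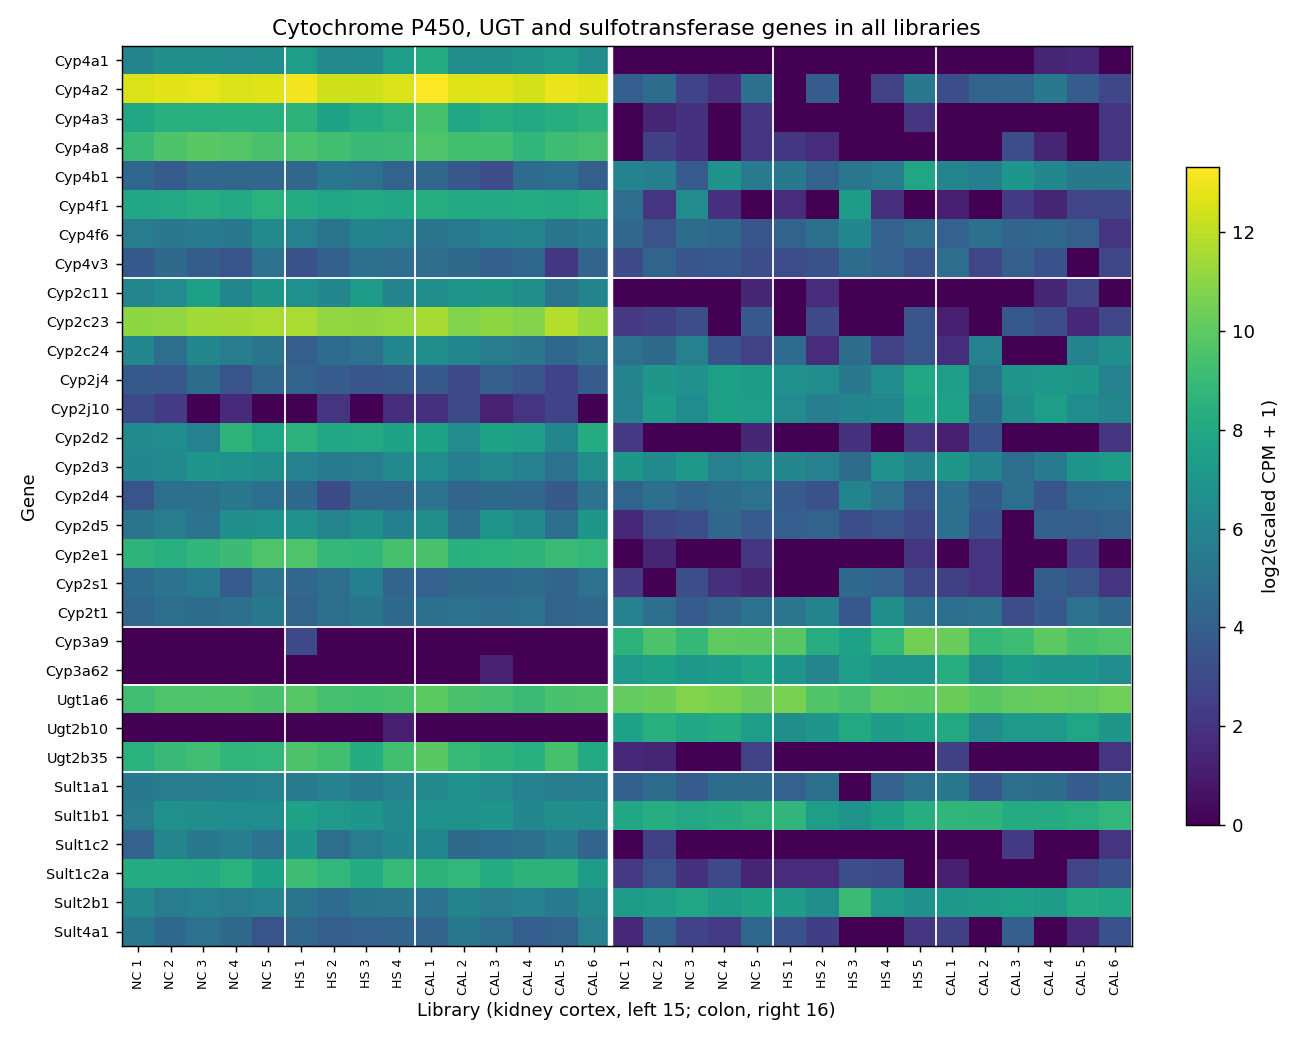
Levels of the 31 genes tested in either tissue (rows, grouped as fatty acid hydroxylases, other Cyp2 genes, Cyp3a, Ugt and Sult) in each of the 31 libraries (columns), as log2(scaled CPM + 1), with white lines between groups and a thick line between tissues. The contrast between cortex and colon is the main pattern: Cyp4a2 lay between 5255 and 10194 CPM in every cortex library and at or under 39.7 CPM in every colon library.

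The first comparison asked which enzymes each tissue uses in control rats. In NC cortex against NC colon, 27 of 33 genes tested differed (17 higher in cortex, 10 higher in colon) by the edgeR quasi-likelihood test at an adjusted p under 0.05, which is 81.8%, where 58.8% of all 9128 genes tested differed (28.4% higher in cortex and 30.4% higher in colon). The libraries of the tissues did not overlap for 25 of the 33 genes, against 47.9% of all genes. Folds below compare the pooled counts of 5 NC libraries per tissue, with exact 95% intervals that cover counting error only. Where a tissue had no count, the fold is a lower bound set by 3 pooled counts. In bulk tissue, fewer cells of a type and less RNA per cell cannot be told apart.

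The fatty acid omega-hydroxylases of the Cyp4a cluster belonged to the cortex. Cyp4a2 was at 6270, 7011, 7198, 6233 and 6580 CPM in the 5 NC cortex libraries and at 14.8, 25.1, 5.52, 2.63 and 28.4 CPM in the NC colon libraries. That is a fold of 433 (324 to 594) on 23780 and 45 counts. Cyp4a8 was 365-fold (167 to 995) higher in cortex and Cyp4a3 230-fold (89.6 to 846) higher. Cyp4a1, a classic target of the fatty acid receptor PPAR alpha, had 312 counts in cortex and 0 in colon and was at least 85.3-fold higher. These 4 genes lie together on chromosome 5, next to Cyp4b1, which went the other way: Cyp4b1 was at 18.9 ± 3.02 CPM in NC cortex and 55.9 ± 34.3 CPM in NC colon (SD, n = 5 each), a log2 difference of -1.52 (SE 0.48, edgeR adjusted p = 0.00731), which without NC colon replicate 4 was -1.12 and not called (adjusted p = 0.0562). Cyp4a2 and Cyp4a3 are close copies, and reads shared by copies may have been split or dropped in the counting.

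The Cyp4f genes, whose family hydroxylates leukotrienes and other eicosanoids, were divided. Cyp4f1 was at 290 ± 48.2 CPM in NC cortex and Cyp4f6 at 50.1 ± 16.2 CPM (n = 5), and they were 16.9-fold (12.7 to 22.9) and 2.94-fold (2.12 to 4.13) higher there than in NC colon. Cyp4f1 in NC colon was uneven, at 25.8, 3.14, 85.5, 2.63 and 0 CPM, and without NC colon replicate 3 its fitted log2 difference moved from 4.02 to 5.36. Cyp4f40 had 0 counts in NC cortex and 40 in NC colon and was at least 16.3-fold higher in colon. Cyp4v3, a fatty acid hydroxylase, did not pass (log2 0.76, SE 0.49, edgeR adjusted p = 0.179).

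The epoxygenases divided by subfamily. Cyp2c23, the main arachidonic acid epoxygenase of rat kidney, was at 2092, 2242, 2828, 2955 and 3162 CPM in NC cortex and between 0 and 11.7 CPM in NC colon, a fold of 496 (301 to 887). Cyp2c11, known as the male-predominant P450 of rat liver, was at 66.6 to 180 CPM in NC cortex and had a single count in NC colon, in replicate 5 (fold 296, interval 52.8 to 11720). The Cyp2j genes were higher in colon: Cyp2j4 was at 127 ± 47.6 CPM in NC colon and 15.8 ± 6.58 CPM in NC cortex (n = 5 each), 8.93-fold (6.69 to 12.1), and Cyp2j10 was 45.7-fold (25.3 to 92.3) higher in colon. Cyp2c24 was at 49.5 ± 19.5 CPM in cortex and 24.9 ± 20 CPM in colon and did not pass (edgeR adjusted p = 0.128).

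Among P450 genes known for foreign compounds and steroids, Cyp2e1, the ethanol-oxidising enzyme, was at 405, 325, 439, 568 and 809 CPM in NC cortex, with 3 counts in NC colon (fold 461, interval 157 to 2236). The fitted log2 difference of Cyp2e1 moved from 8.78 to 9.72 without NC colon replicate 5, and that of Cyp2d2 from 7.20 to 8.18 without NC colon replicate 1 and to 6.60 without NC cortex replicate 4. Cyp2d2 (147-fold, 49.9 to 714), Cyp2d5 (5.50-fold, 3.76 to 8.30) and Cyp2s1 (11.0-fold, 5.37 to 26) were also higher in cortex. Cyp2d3 and Cyp2d4, of the same chromosomal cluster as Cyp2d2 and Cyp2d5, did not differ past the threshold: Cyp2d3 was at 97.1 ± 22.0 CPM in cortex and 96.8 ± 35.9 CPM in colon (n = 5 each). The Cyp3a genes, which oxidise many drugs and steroids, were counted in NC colon and not in NC cortex. Cyp3a9 was at 391, 768, 463, 1039 and 987 CPM in the NC colon libraries and had 0 counts in NC cortex, at least 915-fold higher in colon. Cyp3a62 was at 138 to 222 CPM in NC colon and at least 206-fold higher there. Over all 15 cortex libraries Cyp3a9 had counts in 1 library, HS replicate 1 (6.65 CPM).

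The glucuronosyltransferases were divided as well. Ugt2b35 was at 357, 516, 596, 442 and 449 CPM in NC cortex, with 5 counts in NC colon (fold 276, interval 118 to 851; the fitted log2 difference moved from 8.04 to 8.88 without NC colon replicate 5). Ugt2b10, from the same cluster, was at 199, 343, 256, 296 and 169 CPM in NC colon with 0 counts in NC cortex, at least 303-fold higher in colon. Each of these genes, whose family conjugates steroids and bile acids, was therefore counted almost wholly in 1 of the tissues. Ugt1a6, which conjugates phenols, was high in both: 747 ± 96.5 CPM in cortex and 1397 ± 260 CPM in colon (n = 5 each), with non-overlapping libraries and a log2 difference of -0.79 (SE 0.20, edgeR adjusted p = 0.000849). It is the only Ugt1 gene listed. The Ugt1 locus makes several enzymes from alternative starting exons joined to shared ones, so reads of its other forms may be counted under this symbol.

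The sulfotransferases differed between the tissues for 6 of 6 genes tested. Sult1c2a and Sult1c2 were 55.6-fold (33.6 to 99.8) and 42.9-fold (14.4 to 210) higher in cortex, and they are near copies of each other. All 3 NC colon counts of Sult1c2 came from replicate 2, and without it the fitted log2 difference moved from 5.20 to 7.76, a value set by the prior count because no count is then left in NC colon. Sult1a1, the phenol sulfotransferase, was 2.23-fold (1.66 to 3.02) higher in cortex, and Sult4a1, best known from neurons, 2.54-fold (1.66 to 4.01). The Sult4a1 call (edgeR adjusted p = 0.0202) ended without NC cortex replicate 1 (0.0686) and without NC colon replicates 1 (0.0581) or 4 (0.0625). Sult1b1, which sulfates phenols and thyroid hormones, was 3.49-fold (3.06 to 3.99) higher in colon. Sult2b1, the cholesterol and hydroxysteroid sulfotransferase, was 3.15-fold (2.67 to 3.72) higher in colon.

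**Figure D2:**
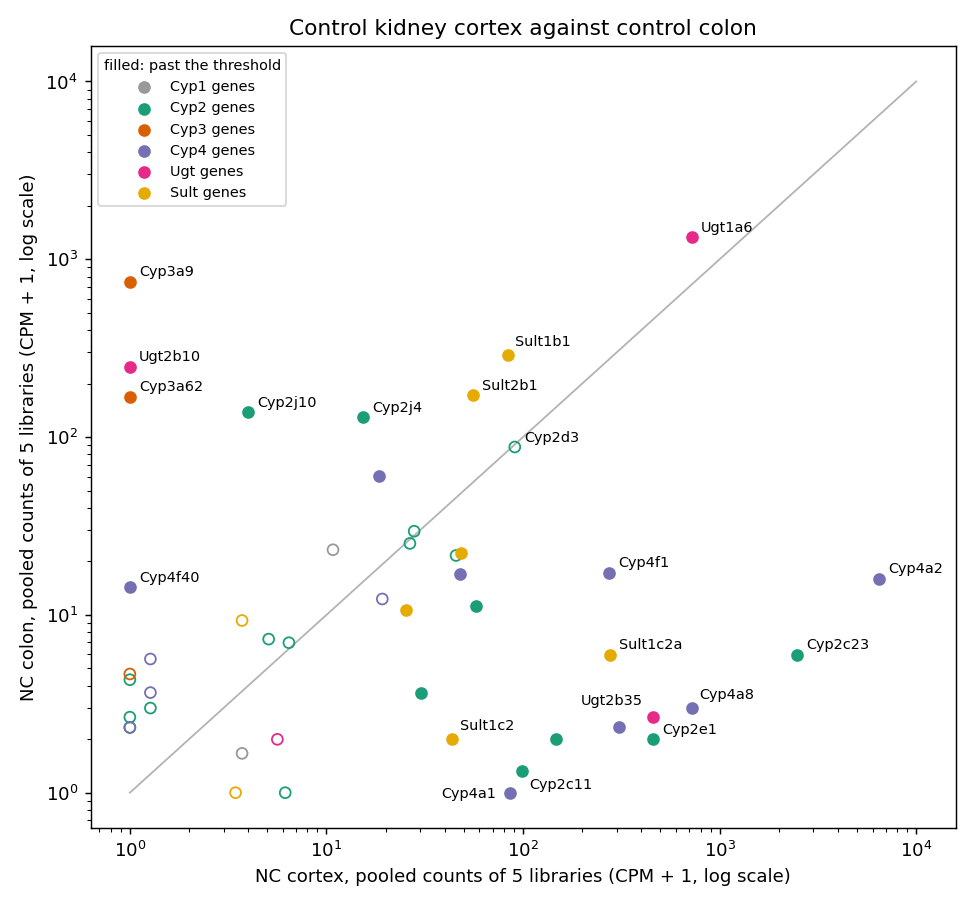
Pooled level of each gene with over 3 pooled counts in its higher NC tissue, as CPM + 1 on log axes, coloured by family. NC cortex is on the x axis and NC colon on the y axis. Filled points passed the edgeR test, and the grey line marks equal levels. Cyp4a2, Cyp2c23, Cyp2e1 and Ugt2b35 lie along the lower right, Cyp3a9, Ugt2b10 and Cyp3a62 on the left edge with 0 counts in cortex, and Ugt1a6 at the upper right with counts in both.

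In the cortex, the comparison of HS with NC asked what the high-salt model changed. Of 26 genes tested, 3 passed (11.5%), where 11.0% of all 7524 genes tested did, so the share was near the background. All 3 were sulfotransferases: Sult1c2a and Sult1b1 rose (7.35% of all genes did) and Sult2b1 fell (3.69% did). None of 18 Cyp genes and neither of the Ugt genes passed. The median log2 difference of the 26 genes was -0.03, against -0.01 over all genes tested, with 12 above 0 and 14 below.

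Sult1c2a was at 293, 296, 281, 361 and 207 CPM in NC cortex, at 581, 455, 291 and 477 CPM in HS, and at 392, 450, 301, 393, 395 and 161 CPM in CAL. It lay above every NC library in 3 of 4 HS libraries, and the log2 difference of HS from NC was 0.66 (SE 0.21, edgeR adjusted p = 0.0410). Sult1b1 was at 48.2, 102, 97.2, 86.7 and 88.4 CPM in NC, at 195, 148, 126 and 81.2 CPM in HS, and at 112, 113, 128, 74.3, 98.9 and 90.1 CPM in CAL. HS was higher in 3 of 4 libraries than any NC library, with a log2 difference of 0.67 (SE 0.22, edgeR adjusted p = 0.0494). Sult2b1 was at 76.6, 48.4, 54.0, 47.3 and 58.4 CPM in NC, at 33.2, 24.4, 35.1 and 38.2 CPM in HS, and at 32.6, 63.4, 49.1, 58.0, 44.1 and 82.5 CPM in CAL. The highest HS value was under the lowest NC value (as for 5.64% of all genes), and Sult2b1 fell by 0.80 on the log2 scale (SE 0.26, edgeR adjusted p = 0.0472).

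The 3 calls stood close to the threshold and ended when single libraries were left out. The edgeR adjusted p of Sult1c2a was 0.0611, 0.0530, 0.0710 and 0.0985 without NC replicates 1, 2, 3 and 5, 0.171 (HS replicate 1), 0.0897 (HS 2) and 0.0897 (HS 4), and 0.0529 without CAL replicate 3. That of Sult1b1 was 0.115, 0.0595, 0.0768 and 0.0706 without NC replicates 1, 3, 4 and 5, 0.246 (HS replicate 1), 0.135 (HS 2) and 0.0635 (HS 3), and 0.0538 (CAL 2), 0.0569 (CAL 3) and 0.0509 (CAL 5). Without HS replicate 1 its log2 difference was 0.44, and in a fit to the HS and NC libraries alone its adjusted p was 0.0531. That of Sult2b1 was 0.116, 0.0668, 0.0540 and 0.0756 without NC replicates 1, 3, 4 and 5, 0.0885 (HS replicate 1), 0.179 (HS 2), 0.0648 (HS 3) and 0.0696 (HS 4), and 0.0538 (CAL 2), 0.0542 (CAL 4) and 0.0516 (CAL 5). The sign stayed the same in each of these fits. Erythrocyte transcripts also moved between these groups: 6 of 7 genes of that list were lower in HS, and their sum ran from 3932 to 20347 CPM in NC, 1039 to 1915 CPM in HS and 3613 to 6958 CPM in CAL. A list of 8 crypt and cycling genes, 1 of which was tested and not called, also separated the groups, at 55.2 to 82.8 CPM in NC and 83.9 to 130 CPM in HS. So did the surface colonocyte list, which had 1 of 7 genes lower, at 526 to 640 CPM in NC and 397 to 510 CPM in HS. The part of these lists in the sulfotransferase differences was not tested. The proximal tubule list had 1 of 14 genes lower in HS, and its sum ran from 20607 to 28035 CPM in NC and 23612 to 24884 CPM in HS.

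**Figure D3:**
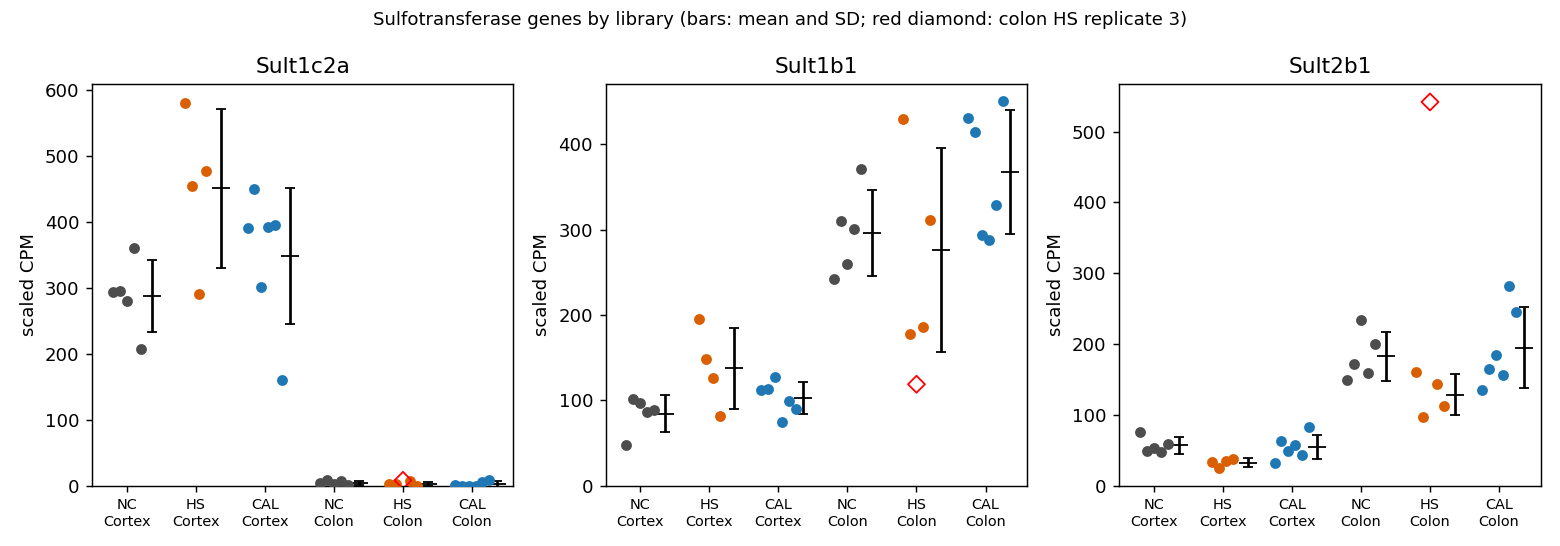
Scaled CPM of Sult1c2a, Sult1b1 and Sult2b1 in each library of the 6 groups, with the mean and SD of each group and colon HS replicate 3 drawn as a red diamond and left out of its bar. In cortex, all 4 HS libraries of Sult2b1 lie below the NC libraries, while Sult1c2a and Sult1b1 each have 1 HS library within the NC range.

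Of the other sulfotransferases, Sult1c2 was at 17.0, 66.3, 41.4, 51.2 and 30.0 CPM in NC and 126, 27.5, 49.1 and 71.6 CPM in HS (log2 0.68, SE 0.39, edgeR adjusted p = 0.259). HS replicate 1 was high for Sult1c2, Sult1c2a and Sult1b1 alike. This was not particular to sulfotransferases: the sum of all 71 genes was 17857 CPM in HS replicate 1 and 11418 to 13383 CPM in the other HS libraries. Sult1a1 (0.10, adjusted p = 0.805) and Sult4a1 (-0.50, adjusted p = 0.431) did not pass the same edgeR test. Among Cyp genes the smallest p was that of Cyp2d3, at 70.9, 81.6, 126, 110 and 96.7 CPM in NC and 59.8, 45.8, 49.1 and 78.8 CPM in HS. Its log2 difference was -0.67 (SE 0.26, edgeR adjusted p = 0.0885), and it passed in a fit to the HS and NC libraries alone (adjusted p = 0.0375) and with no filter on low counts (0.0499). The enzymes of arachidonic acid showed small differences, none past the threshold by edgeR: Cyp4a8 -0.33 (SE 0.17, adjusted p = 0.204), Cyp4a1 0.53 (SE 0.31, 0.278), Cyp4a2 -0.07 (SE 0.15, 0.810), Cyp4a3 -0.01 (SE 0.23, 0.987) and Cyp2c23 -0.07 (SE 0.18, 0.827).

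The summed level of the Cyp4a genes, most of it from Cyp4a2, was 7109 to 8586 CPM in NC, 6149 to 9948 CPM in HS and 6421 to 11988 CPM in CAL. For Cyp4a1, NC libraries were at 62.4, 96.8, 97.2, 84.8 and 95.1 CPM, HS libraries at 171, 76.3, 80.6 and 167 CPM, and CAL libraries at 299, 96.1, 94.3, 116, 141 and 90.1 CPM. HS replicates 1 and 4 lay above all NC libraries and HS replicates 2 and 3 within their range. Cyp4a8 did not have that pattern, at 520 to 954 CPM in NC, 505 to 758 CPM in HS and 439 to 812 CPM in CAL. CAL replicate 1 was the highest of 15 cortex libraries for Cyp4a1, Cyp4a2 (10194 CPM) and Cyp4a3 (683 CPM). It was also the highest of them for Ugt1a6 (984 CPM) and the Ugt2 sum (945 CPM), but not for the Cyp2 or Sult1 sums. CAL replicate 1 was the deepest library as well, at 2265164 counts. The part of depth in these levels was not tested.

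With calcitriol added to the high-salt diet, 0 of 26 genes passed between CAL and HS cortex by edgeR, where 0.758% of all genes did. DESeq2 also gave 0, and 3 of the 26 had an unadjusted p under 0.05. The smallest p values were again those of sulfotransferases. Sult2b1 was higher in CAL than in HS by 0.68 (SE 0.25, edgeR adjusted p = 0.188), with 5 of 6 CAL libraries above every HS library. Sult1c2 was at -0.82 (adjusted p = 0.275), Sult1a1 at 0.44 (0.278), Sult1c2a at -0.38 (0.350) and Sult1b1 at -0.39 (0.373), on the log2 scale. For Sult1c2a, Sult1b1 and Sult2b1 the CAL mean lay between those of NC and HS, but HS enters this comparison and the one above, so the opposite signs are not independent of each other.

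Between CAL and NC cortex, 0 of 26 genes passed by edgeR (0% of all genes) and 0 by DESeq2, with 3 at an unadjusted p under 0.05. Sult1a1 was at 41.1, 49.3, 48.6, 53.2 and 55.0 CPM in NC and 76.5, 106, 84.0, 59.5, 49.4 and 53.7 CPM in CAL (log2 0.54, SE 0.18, edgeR adjusted p = 0.246). Cyp4a1 was at 0.75 (SE 0.27, adjusted p = 0.287), which moved to 0.30 without CAL replicate 1 (adjusted p = 0.585). Cyp2d3 was at -0.48 (adjusted p = 0.376), Cyp4a8 at -0.28 (0.464) and Cyp2s1 at -0.45 (0.534).

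Cyp2r1, which hydroxylates vitamin D to its circulating form, was under the filter on low counts in every comparison. In cortex it was at 4.25, 6.80, 9.0, 5.91 and 0 CPM in NC, at 17.7, 12.2, 14.0 and 13.1 CPM in HS, and at 4.98, 7.68, 6.46, 5.95, 8.83 and 9.59 CPM in CAL. All 4 HS values exceeded all NC and CAL values, on 4 to 11 counts per HS library. Of the genes that passed the filter, 7.44% had HS wholly above NC and 2.30% had CAL wholly below HS. In the fit with no filter the log2 difference of HS from NC was 1.37 (edgeR adjusted p = 0.11) and that of CAL from HS was -1.02 (adjusted p = 0.389), so neither passed. Cyp2r1 had 0 counts in NC colon. Cyp1a1 and Cyp2u1 were also under the cortex filter, with Cyp1a1, the classic target of the aryl hydrocarbon receptor, at 5.0 to 15.8 CPM in NC, 10.7 to 31 CPM in HS and 0 to 57.5 CPM in CAL, and Cyp2u1 at 5.75 ± 0.598 CPM in NC (n = 5) and 3.02 ± 3.48 CPM in HS (n = 4).

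In the colon, edgeR called 0 of 15 genes between HS and NC, where 0% of all 7217 genes did, with 0 by DESeq2 and 0 at an unadjusted p under 0.05. Without HS replicate 3, 0 of 17 passed (0.0129% of all genes) and 4 had an unadjusted p under 0.05. Ugt1a6 was at 1116, 1292, 1746, 1586 and 1247 CPM in NC and 1604, 835, 1003 and 967 CPM in HS replicates 1, 2, 4 and 5, with 669 CPM in HS replicate 3. The log2 difference was -0.46 (SE 0.23, edgeR adjusted p = 0.586) with replicate 3 and -0.34 (adjusted p = 0.836) without it. HS replicate 1 lay within the NC range and the other HS libraries below it.

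Ugt2b10 and Cyp3a62 were also lower on average in HS. Ugt2b10 was at 97.6, 123, 164 and 205 CPM in HS replicates 1, 2, 4 and 5 and at 268 CPM in replicate 3, against 199, 343, 256, 296 and 169 CPM in NC, with log2 differences of -0.57 (edgeR adjusted p = 0.633) with replicate 3 and -0.80 (0.674) without it. Cyp3a62 was at 127, 65.1, 117 and 116 CPM in HS replicates 1, 2, 4 and 5 and at 177 CPM in replicate 3, against 140, 192, 138, 165 and 222 CPM in NC (log2 -0.51 with replicate 3, edgeR adjusted p = 0.678, and -0.69 without it, 0.729). Without replicate 3 every HS library of Cyp3a62 lay below every NC library, as for 1.41% of all genes. Cyp3a9 was at 935, 312, 449 and 1408 CPM in HS replicates 1, 2, 4 and 5 and 199 CPM in replicate 3, which spans the NC values (log2 -0.15, SE 0.42, edgeR adjusted p = 0.963, and 0.08 without replicate 3). Sult2b1 was at 0.21 (adjusted p = 0.932) with replicate 3 and at -0.49 (0.749) without it. Cyp4f6, at 0.93 (adjusted p = 0.586) with replicate 3, was at 0.41 without it.

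Between CAL and HS colon 0 of 15 genes passed by edgeR (0.0139% of all genes) and 0 by DESeq2, with 2 at an unadjusted p under 0.05. Cyp2t1 was at 36.3, 62.8, 94.3 and 33.1 CPM in HS replicates 1, 2, 4 and 5, at 11.1 CPM in replicate 3, and at 28.0, 31.1, 7.72, 12.5, 30.9 and 21.2 CPM in CAL. Its log2 difference was -1.08 (SE 0.44, edgeR adjusted p = 0.401) and -1.31 (0.504) without replicate 3, where the groups did not overlap (as for 0.542% of all genes, lower). Sult1b1 was at 431, 414, 293, 288, 329 and 451 CPM in CAL and 429, 177, 186 and 311 CPM in HS replicates 1, 2, 4 and 5, with 119 CPM in replicate 3 (log2 0.58, SE 0.26, edgeR adjusted p = 0.447, and 0.41 without replicate 3, 0.705). Between CAL and NC colon 0 of 15 passed by edgeR (0% of all genes), 0 by DESeq2 and 0 at an unadjusted p under 0.05. Ugt2b10 had the smallest p there, at 271, 84.0, 147, 142, 232 and 133 CPM in CAL (log2 -0.57, SE 0.29). Without HS replicate 3, Ugt2b10 and Cyp1a1 had an unadjusted p under 0.05 between CAL and NC, and neither passed the adjusted threshold. Cyp1a1, which passed the filter of the colon fit when that library was left out but not with it, was at 3.69, 34.6, 16.5, 30.3 and 23.4 CPM in NC, at 7.94, 20.2, 0 and 3.31 CPM in HS replicates 1, 2, 4 and 5, at 47.0 CPM in HS replicate 3, and at 2.34, 15.6, 3.86, 3.13, 3.87 and 9.08 CPM in CAL. Its log2 difference was -1.95 for CAL against NC (SE 0.64, edgeR adjusted p = 0.920) and -1.40 for HS against NC (SE 0.68, adjusted p = 0.749).

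Colon HS replicate 3 differed from the other 15 colon libraries in several of these genes. Its small-intestine list summed to 30032 CPM, against 89.4 to 838 CPM in the others, led by the ileal bile acid binding protein Fabp6 at 15891 CPM (at most 15.9 CPM in the others), and Lct, the lactase gene, was at 0. Of 61 genes of the 3 families with any colon count, 10 were higher in it than in every other colon library (16.4%) and 6 lower (9.84%), against 13.2% and 7.43% of all 16642 genes with a colon count. Both shares were near the background, so the genes named next describe this library only. Some of the 10 rest on few counts, such as Cyp2r1 on 1 count and Cyp1b1 on 2. Sult2b1 was at 542 CPM, with 96.5 to 282 CPM in the others. Cyp4f1 was at 163 CPM, with 0 to 85.5 CPM in the others, Cyp4f40 at 52.5 CPM, with 3.03 to 23.4 CPM, and Cyp4f6 at 74.6 CPM, with 3.03 to 29.2 CPM. Cyp3a18, which was singled out after its values were seen, was at 88.5 CPM on 32 counts, with 0 to 17.5 CPM in the others. Cyp3a9 (199 CPM, others 312 to 1408), Sult1b1 (119 CPM, others 177 to 451), Ugt1a6 (669 CPM, others 835 to 1746) and Cyp2d3 (24.9 CPM, others 27.0 to 151) were at their lowest in this library. Sult1a1 had 0 counts in it, which allows up to 8.29 CPM. An immune list also stood high, at 18257 CPM, with 14925 CPM in HS replicate 4 and at most 6335 CPM in the others.

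**Figure D4:**
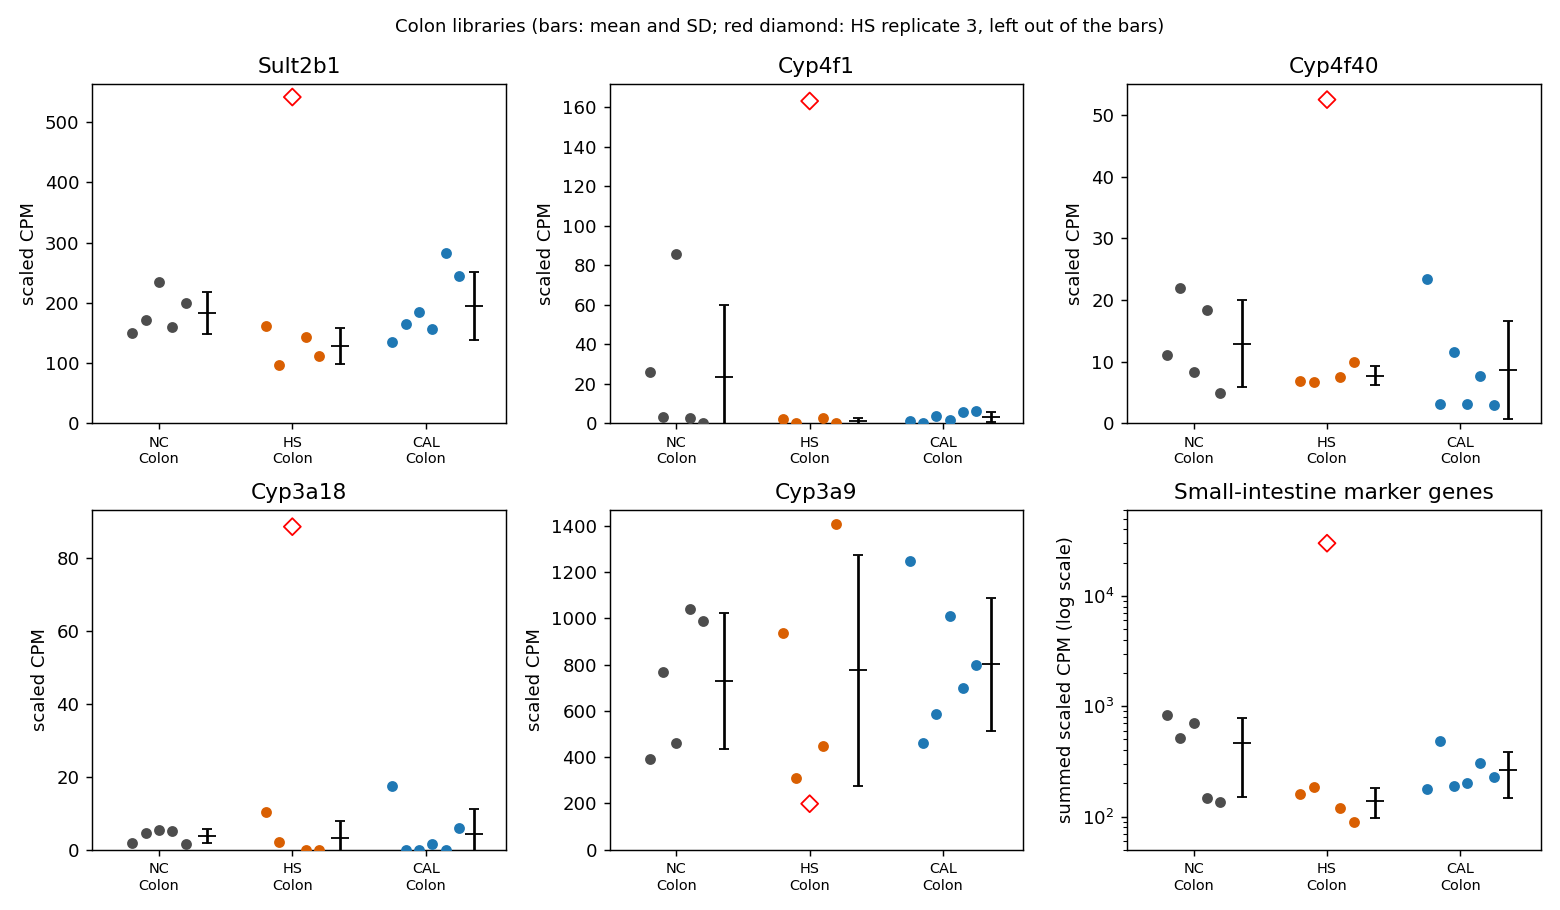
Scaled CPM of Sult2b1, Cyp4f1, Cyp4f40, Cyp3a18 and Cyp3a9 and the sum of 11 small-intestine marker genes (log axis) in each colon library by group; the red diamond is HS replicate 3, and the bars (mean and SD, cut off at the axis) leave it out. HS replicate 3 is the highest library in 5 of the 6 panels and the lowest for Cyp3a9.

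The other colon libraries also varied. The smooth muscle list summed to 2600 to 29189 CPM among the 16 colon libraries, and its part in the spread of the epithelial enzymes was not tested. From the lowest to the highest colon library, Cyp3a9 spanned 7.07-fold, Cyp2j4 7.26-fold, Cyp2j10 9.43-fold, Cyp4b1 16.6-fold and Sult1b1 3.79-fold.

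Whether the tissues responded differently was tested as the colon effect minus the cortex effect. For HS against NC, 0 of 33 genes passed by edgeR (0.0219% of all 9128 genes) and 0 by DESeq2, and for CAL against HS 0 of 33 (0% of all genes) and 0 by DESeq2, each with 3 at an unadjusted p under 0.05. Sult1b1 was at -0.91 for HS against NC (SE 0.38, edgeR adjusted p = 0.279) and 0.96 for CAL against HS (SE 0.36, adjusted p = 0.396). Sult2b1 was at 1.03 for HS against NC (SE 0.49, adjusted p = 0.362), and at 0.32 (adjusted p = 0.761) without colon HS replicate 3. The changes of these sulfotransferases in cortex are therefore not shown to differ from those in colon.

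Among the cortex libraries, Cyp2d2 separated into low and high libraries. NC and CAL libraries were in both sets, and HS libraries only in the high set. This pattern was singled out after the values were seen and has no test. NC replicates 1, 2 and 3 and CAL replicates 2 and 5 were at 57.6 to 89.2 CPM for Cyp2d2, and the other 10 libraries at 174 to 406 CPM. The same 5 libraries were the lowest for Cyp2d5, at 28.2 to 47.6 CPM, with 52.5 to 132 CPM in the others. The values of Cyp2d5 ran on without a clear gap between these sets. For Cyp2d3, which lies next to Cyp2d2 on chromosome 7, only 2 of the 5 lowest libraries were among these, and for Cyp2d4 3 of 5. All 4 HS libraries were outside the low set of Cyp2d2 and not among the 5 lowest of Cyp2d5. The HS and NC means of Cyp2d2, 274 ± 71.3 (n = 4) and 172 ± 147 CPM (n = 5), gave a log2 difference of 0.70 (SE 0.40, edgeR adjusted p = 0.261). Copies of Cyp2d genes resemble each other, and reads may have been assigned between them.

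**Figure D5:**
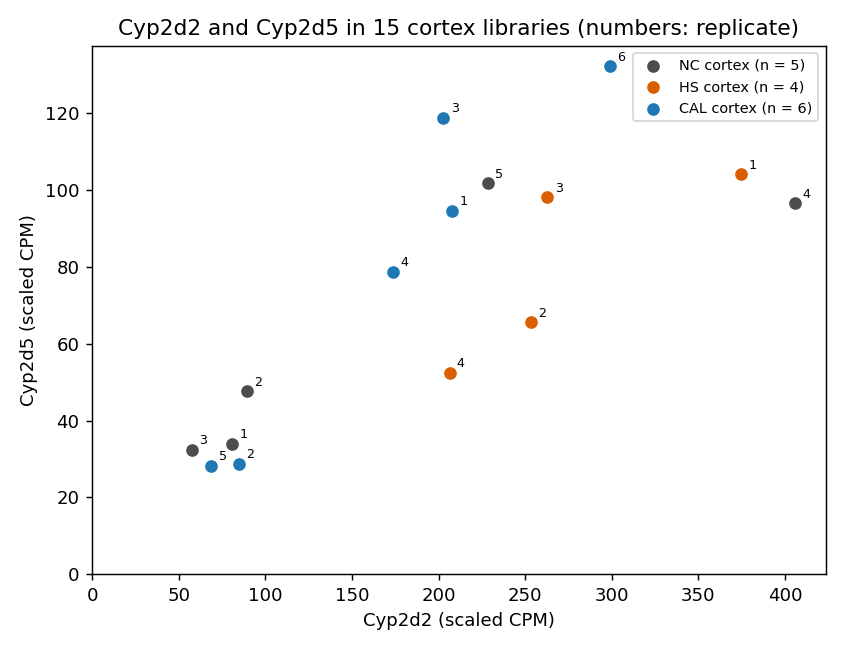
Cyp2d2 (x axis) against Cyp2d5 (y axis) in scaled CPM for the 15 cortex libraries, coloured by group and numbered by replicate. A set of 5 libraries, NC 1, 2 and 3 and CAL 2 and 5, lies at the lower left, at or under 89.2 CPM for Cyp2d2 and 47.6 CPM for Cyp2d5.

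Genes that serve or regulate these enzymes were counted by list. Over all genes tested in HS against NC cortex, 7.35% were higher and 3.69% lower. In that comparison, electron donors, cofactor synthesis and cofactor transport had 1 of 16 genes higher and 1 lower. Pgrmc1, a haem-binding partner of P450 enzymes, rose by 0.66 (SE 0.19, edgeR adjusted p = 0.0276, but 0.0538 and 0.0664 without NC replicates 3 and 4, and 0.113 and 0.0739 without HS replicates 1 and 2). Slc35b2, which carries the sulfate donor into the Golgi, away from the cytosolic Sult enzymes, fell by 0.57 (SE 0.18, edgeR adjusted p = 0.0410). Its call ended by DESeq2 (0.0673) and without NC replicates 2 (0.0634), 3 (0.101) or 4 (0.0781) or HS replicates 1 (0.0635), 2 (0.0721), 3 (0.0735) or 4 (0.145).

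Of 20 regulators tested, 2 were higher and 1 lower, among them Nfe2l2, the oxidative stress factor, at 103 ± 8.73 CPM in NC and 166 ± 35.1 CPM in HS (log2 0.73, SE 0.18, edgeR adjusted p = 0.0135, but 0.0590 and 0.0554 without HS replicates 2 and 4). Of 6 eicosanoid genes, 1 was higher and 1 lower, and Ptges2, a prostaglandin E synthase, fell by 0.58 (SE 0.16, adjusted p = 0.0200, but 0.0745 without HS replicate 4). Of 18 other oxidising and reducing enzymes, 2 were higher and 2 lower, and the aldehyde reductase Akr7a2 fell by 0.46 (SE 0.11, adjusted p = 0.00939, but 0.0507 without HS replicate 2).

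Of 10 other conjugating enzymes, 3 were higher and 1 lower. Hnmt, which methylates histamine, rose from 254 ± 38.2 CPM in NC (n = 5) to 544 ± 76.8 CPM in HS (n = 4), with a log2 difference of 1.09 (SE 0.19, edgeR adjusted p = 0.00119), and was past the threshold with each cortex library left out. Deconjugating enzymes (7 genes), conjugate transporters (12 genes) and P450 genes of other families (4 genes) had none past the threshold between HS and NC cortex by edgeR. Between CAL and HS cortex, 1 of 10 other conjugating enzymes was lower and 1 of 4 P450 genes of other families higher, with none called in the other 6 lists (0.758% of all genes were called). Hnmt was at 298 ± 96.3 CPM in CAL (n = 6) and fell by 0.87 (edgeR adjusted p = 0.0221, but 0.0931 and 0.0819 without HS replicates 1 and 2). Cyp24a1, which degrades calcitriol, was at 58.8 ± 21.4 CPM in HS (n = 4) and 151 ± 72.1 CPM in CAL (n = 6), a log2 difference of 1.46 (SE 0.30, adjusted p = 0.0221, but 0.0900, 0.0697 and 0.0868 without HS replicates 1, 2 and 4). In the colon, none of the genes tested in these 8 lists passed between HS and NC or between CAL and HS.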

How the data were processed

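RNA was isolated with TRIzol from both tissues, made into libraries with a tagmentation kit and sequenced on a NextSeq 500, per the labels' protocols and design text. The values deposited by the authors are whole-number read counts per gene, not normalised, for 31 libraries. The submitters' processing notes name FastQC 0.11.9, Trimmomatic 0.39, HISAT2 2.1.0, featureCounts 1.6.5 and the build Rnor_6.0. The annotation and the strand setting are not given in the sources used here, so overlapping antisense genes cannot be told apart. All columns were mapped to a sample by title, leaving 0 unused.

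Genes were kept with edgeR's filter (minimum count 10, minimum total 15), scaled by TMM with library totals over the kept genes, and tested with edgeR 4.0.16 (limma 3.58.1, R 4.3.3) by the quasi-likelihood test, in 1 fit per tissue and 1 joint fit for differences between tissues. Adjusted p-values are Benjamini-Hochberg over all genes tested, with a threshold of 0.05. CPM, folds and exact 95% intervals were computed from the deposited counts with Python 3.11.15 and scipy 1.17.1. The fit was tested on simulated data. Alternatives were no filter, DESeq2 1.42.0, edgeR with DESeq2's size factors, only the 2 groups compared, the replicate number as a block, and each library left out in turn. The genes and lists were chosen with earlier results of these data known. Genes named are those past the threshold (at most 15 per direction by smallest p), or up to 5 with the smallest p, a list chosen by role, and the 2 highest genes of each family and tissue. Pathway lists name up to 4 genes each by p. Cyp2c24, Cyp2d4 and Cyp3a18 and the Cyp2d2 and Cyp2d5 pattern were singled out after their values were seen. Cell type lists were summed as CPM, and those without a value in the text were not used in a result.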

Additional observations from a re-analysis of the deposited data

Results flagged for a closer look

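In each group of 4 to 6 libraries, the gap from the highest or lowest library to the next was divided by the full range of the group. This ratio was compared with Dixon's 95% critical value. Of 123 groups of the genes kept by the filter, 12 had a library past that value. For normally distributed values chance gives about 1 in 20. CPM values need not be normally distributed and groups share libraries, so the 12 are not read as an excess. A further 15 groups, of Cyp1a1, Cyp3a18, Cyp4f1 and Cyp4f40, were added after their values were seen, so their 5 are a description only.

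Colon HS replicate 3 held 5 of the 17 flagged in all. Those of Cyp4f1, Cyp3a18 and Cyp4f40 come from the groups added after their values were seen, so this count is a description only. It was above the other 4 HS colon libraries for Sult2b1 (542 CPM, others 96.5 to 161), Cyp4f1 (163 CPM, others 0 to 2.48), Cyp3a18 (88.5 CPM, others 0 to 10.2), Cyp4f6 (74.6 CPM, others 17.4 to 29.2) and Cyp4f40 (52.5 CPM, others 6.73 to 9.94). Colon HS replicate 5 was high for Cyp4b1 (229 CPM, others 18.0 to 47.2) and Cyp2j10 (205 CPM, others 51.6 to 84.0). Colon CAL replicate 1 was high for Cyp3a62 (319 CPM, others 87.7 to 151) and Cyp3a18 (17.5 CPM, others 0 to 6.05).

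In the cortex, CAL replicate 1, the deepest library, was high for Cyp4a1 (299 CPM, others 90.1 to 141) and Cyp4a3 (683 CPM, others 240 to 393). CAL replicate 6 was high for Cyp1a1 (57.5 CPM, others 0 to 21.1), which the aryl hydrocarbon receptor induces. HS replicate 1 was high for Cyp2c23 (3207 CPM, others 2216 to 2376), and HS replicate 2 was low for Cyp2d4 (7.63 CPM, others 21 to 22.2). NC replicate 1 was low for Sult1b1 (48.2 CPM, others 86.7 to 102), NC replicate 2 was low for Cyp4b1 (13.6 CPM, others 19.7 to 21.3), and NC replicate 5 was high for Cyp4f6 (78.4 CPM, others 39.1 to 48.2).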

How the results depend on the processing

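For HS against NC cortex, the count of genes called, 3 in the report, ranged from 0 to 3 when each of the 15 cortex libraries was left out in turn. It was 0 without NC replicates 1, 3 or 5 or HS replicates 1 or 2, and 1 without HS replicates 3 or 4 or CAL replicates 2, 3 or 5. Without NC replicate 4, only Sult1c2a of the 3 stayed past the threshold (edgeR adjusted p = 0.0379). Under the other settings it was 2 to 4, and Sult1b1 was at an adjusted p of 0.0527 with DESeq2's size factors and 0.0531 in the fit to only the 2 groups. Between CAL and NC cortex the count was 1 with no filter on low counts (Cyp4a1, edgeR adjusted p = 0.0411), against 0 in the report, and the cause was not tested. The count between NC cortex and NC colon was 24 to 27 with a library left out and 23 to 32 under the other settings. The other comparisons gave 0 under every setting run. Among the genes named, no called difference changed sign under any setting run. Differences that were not called did so without colon HS replicate 3, among them Sult2b1 (HS against NC 0.21 to -0.49, CAL against HS -0.11 to 0.59) and the tissue difference of Cyp4f1 for CAL against HS (-3.48 to 0.68). Low depth limits genes such as Cyp2r1, with 4 to 11 counts per HS cortex library.

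Within each tissue, same-numbered libraries of different groups were checked for deviating together. In cortex their correlations ran from -0.158 to 0.0675 over 13 pairs (median -0.0116), against -0.213 to 0.173 over 61 differently numbered pairs (median 0.00361). In colon they ran from -0.228 to 0.245 over 15 pairs (median 0.0468), against -0.235 to 0.260 over 70 (median -0.0118). Cortex and colon libraries of the same number were not compared. Whether they came from the same rats was not tested, and the joint fit of the report treated every library as a separate sample. With the replicate number as a block, 4 genes passed between HS and NC cortex (edgeR adjusted p = 0.0152 for Sult1c2a, 0.0488 for Sult2b1, 0.0487 for Sult1b1 and 0.0483 for Cyp2d3) and 23 between the NC tissues. The tissue calls of Cyp3a9, Ugt2b10, Cyp4a3 and Cyp4f40 ended with the block (edgeR adjusted p = 1 each). Their log2 differences with the block were -12.16, -10.18, 7.59 and -5.79, against -11.76, -10.23, 7.76 and -6.01 in the report. The differences themselves therefore stayed large, and the cause of the lost calls was not tested.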
